A study of Mus musculus with 6 samples.

Results

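The 51 genes described here encode the matrix metalloproteases (Mmp), the ADAMTS proteases, the ADAMTS-like (Adamtsl) glycoproteins and the tissue inhibitors of metalloproteases (Timp) of the mouse. They were chosen by name alone, as every protein-coding row of the gene table whose symbol begins with Mmp, Adamts, Adamtsl or Timp followed by a number. The rule took 23 Mmp, 19 Adamts, 5 Adamtsl and 4 Timp genes out of 22052 protein-coding rows and 41799 rows in all. RNA sequencing was performed on liver sinusoidal endothelial cells (SECs) isolated from mice with liver fibrosis. Of the libraries, 3 were of control mice and 3 of mice with endothelial knock-out of RBPj. RBPj is the nuclear protein that carries Notch signals to DNA. Both groups had the same treatment by their labels. Male mice received tamoxifen at 4 to 6 weeks of age (2 mg per 20 g of body weight daily for 7 days), rested for a week, and were then injected intraperitoneally with 0.6 μl of CCl4 per g (carbon tetrachloride, at 15% in olive oil) 2 times a week for 6 weeks. The age at isolation is labelled 12 to 14 weeks. The strain is labelled C57BL/6 for the 3 control libraries and knock-out replicate 1, C57BL/7 for knock-out replicate 2 and C57BL/8 for knock-out replicate 3. The last digit rises with the knock-out replicate number, and whether the strains truly differed was not found in the sources used here. The Cre line that drives the deletion, the genotype of the controls and whether each library came from a separate mouse were not found in the sources used here, so p-values measure the spread between these libraries. No library of uninjured liver was analysed here.

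Metalloproteases are zinc enzymes that are made as inactive proforms and cut collagens, proteoglycans and other proteins of the extracellular matrix. ADAMTS proteases are their secreted relatives with thrombospondin repeats, and act on procollagen, on large proteoglycans such as versican, or on von Willebrand factor. ADAMTS-like proteins keep the repeats without the catalytic domain and bind fibrillin microfibrils, and the Timp proteins bind and block the active site of the proteases. In the fibrotic liver, matrix is laid down mainly by activated stellate cells, and enzymes that break it down come from stellate cells, macrophages, neutrophils and endothelium.

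Total counts lay between 10372195 and 12326770 per library. Normalized levels are given as CPM, the counts of a gene scaled to a common library size after TMM normalization. Rbpj had 18.6, 14.5 and 16.4 CPM in control replicates 1, 2 and 3 and 11.6, 8.10 and 11.9 CPM in knock-out replicates 1, 2 and 3, so that each knock-out library lay below each control library (log2 fold change -0.64 ± 0.19 SE, edgeR adjusted p = 0.187). Rbpj transcripts were thus lower but still detected in each knock-out library. All 10 sinusoidal endothelial markers examined, among them Stab2, Lyve1 and Kdr, were detected in all 6 libraries, with summed levels of 12659 to 18540 CPM in control and 19568 to 24377 CPM in knock-out libraries. The markers differed in direction. Without overlap of the groups, 4 of the 10 were higher and 1, Clec4g, was lower in knock-out SECs (log2 fold change -1.03). Of all 15404 tested genes, 13.2% were higher and 11.7% lower without overlap. Lyve1 had a log2 fold change of -0.73, with overlap. Transcripts of other cells were also present. The 12 stellate cell and myofibroblast markers, all detected in each library, summed to 4588, 7556 and 12814 CPM in control replicates 1, 2 and 3 and to 1468, 6223 and 4336 CPM in the knock-out replicates. Neutrophil markers, of which 9 of 10 were detected in each library and Mpo was at 0 in all, summed to 22475, 336 and 363 CPM in the control and to 4537, 818 and 650 CPM in the knock-out replicates. The 8 macrophage markers summed to 1828 to 2533 CPM in control and 343 to 1222 CPM in knock-out libraries. In bulk RNA, fewer cells of a type and less RNA per cell cannot be told apart.

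Of the 51 genes, 38 had enough counts to be tested (17 Mmp, 13 Adamts, 5 Adamtsl and 3 Timp genes), and none of them passed the threshold. By edgeR's quasi-likelihood test 0 of 38 had an adjusted p under 0.05, where 0.195% of all 15404 tested genes did. An unadjusted p under 0.05 was reached by 11 of 38, 4 higher and 7 lower in knock-out SECs, where 17.5% of all tested genes reached it. The 3 knock-out and 3 control libraries did not overlap for 9 of the 38 genes (23.7%), close to the 24.9% of all tested genes. In 4 of the 9 the knock-out was higher (13.2% of all tested genes), and in 5 it was lower (11.7%). Adamts1, Adamts4, Adamts7 and Mmp14 made up the first group, and Adamts3, Adamts13, Adamts15, Timp2 and Timp3 the second. DESeq2 called 8 of the 35 members to which it gave an adjusted p, which are these 9 genes without Timp2, beside 5.72% of all genes. With limma-voom and sample quality weights 3 were called (Adamts1, Adamts15 and Timp3), beside 3.17% of all genes, and edgeR without a filter on low counts called 2 (Adamts1 and Adamts15), beside 0.65%. Leaving out any single library gave no edgeR call among the members.

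Most of the tested genes lay lower in knock-out SECs, with 12 positive and 26 negative log2 fold changes and a median of -0.68, beside -0.03 over all tested genes. The fold changes ran from -2.20 for Mmp25 to 1.09 for Adamts4. Without control replicate 3 the median of the tested members was -0.15. By family the median was -0.08 for the Mmp genes, -0.55 for the Adamts genes, -0.92 for the Adamtsl genes and -0.62 for the Timp genes. All 5 Adamtsl genes had negative values, as had Timp2, Timp3 and, at -0.03, Timp1, whose sign changed without control replicate 2 or knock-out replicate 3, while the Mmp genes were divided, 8 positive and 9 negative.

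**Figure D1:**
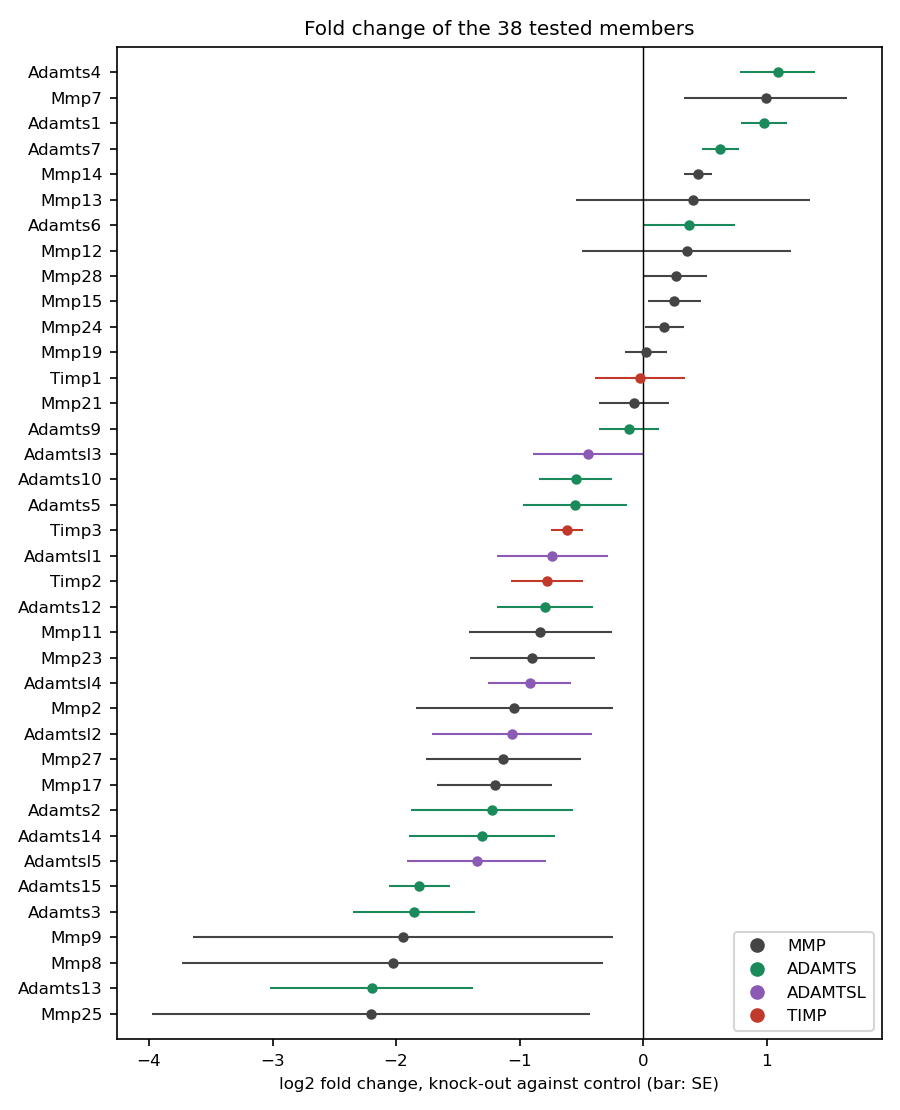
Log2 fold change of each of the 38 tested genes in knock-out against control SECs (x axis), with bars of 1 standard error and colours for the families; 0 means no difference. Values run from -2.20 for Mmp25 to 1.09 for Adamts4, no gene has an edgeR adjusted p under 0.05, and Mmp8, Mmp9 and Mmp25 have the widest bars.

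The 6 promoters below are shown because these genes carry the results that follow. Mmp14, Timp3 and Adamts1 were the most abundant members, Adamts13 holds the core letters that RBPj binds, and Mmp7 and Mmp13 belong to the cluster of Mmp genes on chromosome 9. Each run is the 120 bases just before the transcription start in RefSeq (GRCm38.p6, the assembly also called mm10), written 5′ to 3′ on the gene's own strand. Capitals mark TGGGAA (the RBPj core), TGANTCA (the AP-1 site) or TATAAA (the TATA box), each searched on both strands.
Mmp14 (chr14:54431478-54431597, + strand): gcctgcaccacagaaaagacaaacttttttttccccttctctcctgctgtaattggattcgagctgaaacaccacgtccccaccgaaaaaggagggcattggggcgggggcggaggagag
Timp3 (chr10:86300292-86300411, + strand): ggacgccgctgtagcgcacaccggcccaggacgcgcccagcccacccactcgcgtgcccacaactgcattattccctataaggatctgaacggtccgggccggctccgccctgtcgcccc
Adamts1 (chr16:85803114-85803233, - strand): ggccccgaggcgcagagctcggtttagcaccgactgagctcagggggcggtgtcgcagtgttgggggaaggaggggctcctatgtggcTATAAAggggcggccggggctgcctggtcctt
Adamts13 (chr2:26973296-26973415, + strand): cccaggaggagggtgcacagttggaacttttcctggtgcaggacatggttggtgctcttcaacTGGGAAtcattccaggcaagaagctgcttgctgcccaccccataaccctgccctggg
Mmp7 (chr9:7691970-7692089, + strand): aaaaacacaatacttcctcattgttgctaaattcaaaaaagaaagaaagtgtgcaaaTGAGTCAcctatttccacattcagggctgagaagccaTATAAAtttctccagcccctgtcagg
Mmp13 (chr9:7272394-7272513, + strand): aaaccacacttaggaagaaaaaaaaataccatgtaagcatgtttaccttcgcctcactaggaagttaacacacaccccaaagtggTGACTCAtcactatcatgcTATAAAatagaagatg

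Over the window from 250 bases before to 50 bases after the start, 36 of the 51 genes had a RefSeq sequence. TGGGAA was found in 11 of the 36, or 30.6%, and in 25.6% of all 32851 promoter windows. Besides Adamts13, where it begins 57 bases before the start, it was found in Adamts14, Adamts20, Adamtsl2, Adamtsl3, Adamtsl5, Mmp13, Mmp1b, Mmp25, Mmp28 and Timp1. TGANTCA was found in 7 of the 36 (19.4%) and in 7.81% of all windows, and all 7 genes (Mmp10, Mmp13, Mmp1a, Mmp1b, Mmp20, Mmp3 and Mmp7) lie in the cluster on chromosome 9. TATAAA was found in 11 of the 36 (30.6%) and in 13.6% of all windows, among them these same 7 genes. A match is a run of letters and not a measured binding site. Adamts4, Adamts7, Adamts15, Mmp2 and Mmp9 are among the 15 genes with no window here.

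Levels of different genes were compared as RPKM, which divides by gene length. Mmp14, a membrane-anchored collagenase that also activates pro-Mmp2, had the highest mean over the 6 libraries (196 RPKM), followed by Timp3 (178 RPKM) and Adamts1 (169 RPKM). Mmp9 and Mmp8 came next with means of 115 and 103 RPKM, but these means rest on control replicate 1. Timp2 (59.3 RPKM), Adamts4 (29.0 RPKM) and Mmp2 (27.8 RPKM) completed the 8 highest. The order differed between the groups, with means of 210 RPKM for Timp3, 177 for Mmp9, 160 for both Mmp14 and Mmp8 and 109 for Adamts1 in control libraries, and of 231 RPKM for Mmp14, 230 for Adamts1 and 146 for Timp3 in knock-out libraries. At the low end of the tested genes were Mmp21 (0.430 RPKM), Adamts3 (0.408 RPKM) and Adamtsl3 (0.293 RPKM). Timp3 alone made up 65.7% to 77.3% of the summed RPKM of the Timp genes in each library, and Adamts1 made up 44.0% to 56.2% of the Adamts sum in control and 64.8% to 68.4% in knock-out libraries.

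**Figure D2:**
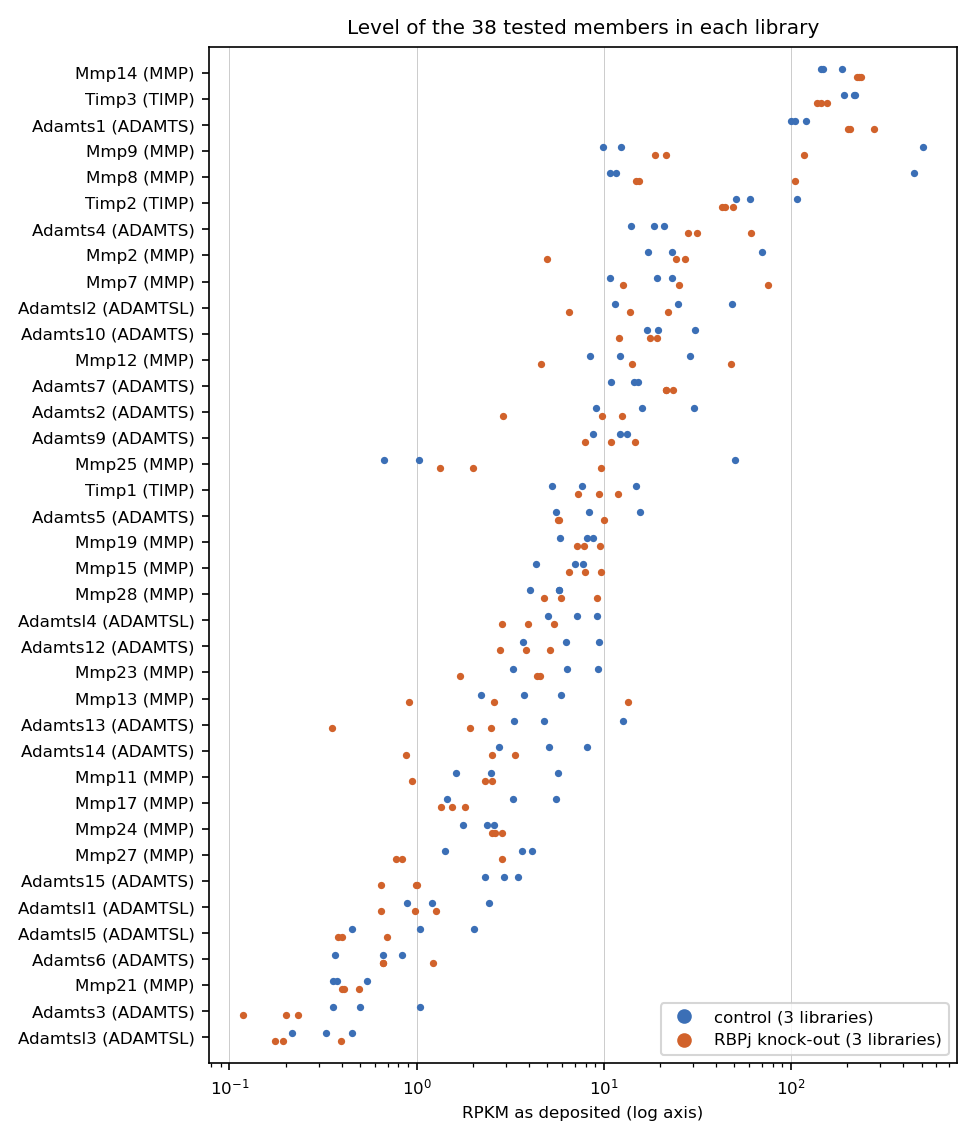
RPKM as deposited (x axis, log scale) of the 38 tested genes in each of the 3 control (blue) and 3 RBPj knock-out (orange) libraries, ordered by the mean over the 6 libraries. Mmp14, Timp3 and Adamts1 lie close to or above 100 RPKM in every library, whereas Mmp8, Mmp9 and Mmp25 have 1 control library far to the right of the others.

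Among the proteases, Adamts1 (chromosome 16, 85793827 to 85803115, - strand), which cuts versican and other proteoglycans and is expressed by endothelium, was the most abundant of its family. Adamts1 had 572, 463 and 623 CPM in control replicates 1, 2 and 3 and 1302, 1027 and 936 CPM in knock-out replicates 1, 2 and 3. The lowest knock-out library lay well above the highest control library. The means were 553 ± 81.6 and 1088 ± 190 CPM (SD, n = 3 each), 1.97-fold higher in the knock-out group (log2 fold change 0.98 with a SE of 0.19, edgeR adjusted p = 0.0996). With each library left out in turn the log2 fold change stayed between 0.84 and 1.10, and the adjusted p between 0.107 and 0.285. With DESeq2 the adjusted p was 2.14e-04.

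Adamts4 (chromosome 1, 171250422 to 171259922, + strand) is an aggrecanase that also cuts versican. Its levels were 56.9, 72.9 and 71.5 CPM in the control and 214, 105 and 110 CPM in the knock-out libraries. Knock-out replicate 1 was the highest by far, and the other knock-out libraries were still above all controls. The log2 fold change was 1.09 ± 0.31 (edgeR adjusted p = 0.175), and 0.69 without knock-out replicate 1. Adamts7 (chromosome 9, 90162978 to 90200102, + strand), which cuts cartilage oligomeric matrix protein and is known from injured vessel walls, had 93.7, 84.1 and 66.8 CPM in control and 120, 138 and 119 CPM in knock-out libraries. Here the knock-out libraries lay close together, and the log2 fold change was 0.63 ± 0.15 (edgeR adjusted p = 0.137), with 0.50 to 0.74 when single libraries were left out.

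Mmp14 (chromosome 14, 54431604 to 54441258, + strand) had the least spread between libraries of these genes. Its levels were 415, 465 and 405 CPM in control and 588, 606 and 556 CPM in knock-out SECs. Every knock-out library was above every control library, and the ratio was 1.36 (log2 fold change 0.45 ± 0.11, edgeR adjusted p = 0.151). Timp3 (chromosome 10, 86300412 to 86349505, + strand), a matrix-bound inhibitor of metalloproteases, of Adam17 and of the aggrecanases Adamts4 and Adamts5, went the other way. Timp3 had 994, 970 and 1089 CPM in control and 614, 735 and 643 CPM in knock-out SECs, with no overlap. The log2 fold change was -0.62 ± 0.13, 1.53-fold lower in knock-out SECs, with an edgeR adjusted p of 0.116 that ran from 9.82e-04 with DESeq2 to 0.368 with single libraries left out.

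Because Timp3 and Mmp14 were both abundant and differed in direction, their ratio was taken within each library, after their values had been seen and without a test. Timp3 RPKM divided by Mmp14 RPKM was 1.33, 1.16 and 1.49 in the control and 0.579, 0.673 and 0.642 in the knock-out replicates. By RPKM the inhibitor transcript thus exceeded the protease transcript in each control library and lay below it in each knock-out library. By CPM, which do not divide by gene length, Timp3 lay above Mmp14 in every library of both groups. Both genes had separated the groups in opposite directions, so the separation of their ratio follows from the choice of genes. Timp2, which joins Mmp14 in activating pro-Mmp2 and also inhibits it, stood at 0.352, 0.322 and 0.728 of Mmp14 RPKM in control and at 0.181, 0.192 and 0.218 in knock-out libraries.

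Timp2 itself (chromosome 11, 118301061 to 118355411, - strand) had 204, 209 and 411 CPM in control and 149, 162 and 169 CPM in knock-out SECs. The groups did not overlap, but control replicate 3 was far above the other controls. The log2 fold change was -0.78 ± 0.29 (edgeR adjusted p = 0.253), and -0.37 without that library. Timp1, the inhibitor that rises with activation of stellate cells in fibrotic liver, was low and did not separate the groups, with 5.23, 12.7 and 7.21 CPM in control and 10.1, 8.43 and 6.20 CPM in knock-out libraries (log2 fold change -0.03 ± 0.36, edgeR adjusted p = 0.976). The opposite-strand gene Syn1 overlaps Timp1 over 4572 bases and had 137 counts over all libraries, beside 569 for Timp1. Timp4 had 0 to 4 counts per library, which was below the filter.

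Adamts15 (chromosome 9, 30899155 to 30922452, - strand), a further versican-cutting protease, had the smallest p of all members. Its levels were 17.9, 19.5 and 25.5 CPM in control and 6.63, 7.04 and 4.26 CPM in knock-out SECs, so the groups lay far apart for a gene of low abundance. The means were 21.0 ± 4.01 and 5.98 ± 1.50 CPM (SD, n = 3 each), 3.51-fold lower in the knock-out group (log2 fold change -1.81 ± 0.25, edgeR adjusted p = 0.0532, just above the threshold). With single libraries left out the fold change stayed between -1.95 and -1.60. DESeq2 gave an adjusted p of 1.77e-07.

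**Figure D3:**
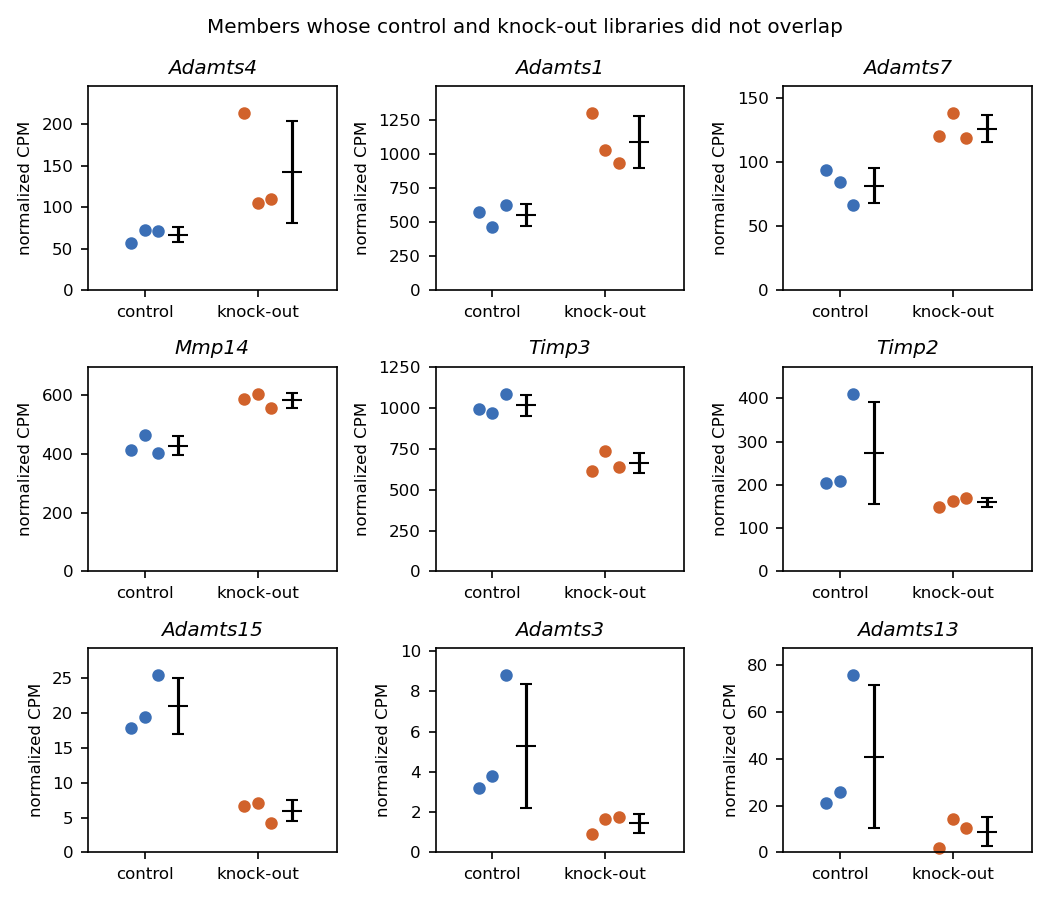
Normalized CPM (y axis, from 0) of the 9 genes whose control (blue) and knock-out (orange) libraries did not overlap; points are single libraries in the order of their replicate numbers, and the black marks beside them give the mean ± SD (n = 3). Adamts1, Adamts4, Adamts7 and Mmp14 are higher in each knock-out library, and for Timp2, Adamts3 and Adamts13 control replicate 3 stands apart at 411, 8.82 and 75.9 CPM.

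The procollagen N-proteinases Adamts2, Adamts3 and Adamts14 remove the amino-terminal propeptide of fibrillar procollagens, and Adamts3 also helps to activate the lymphatic growth factor Vegfc. Adamts3 was scarce, with 3.20, 3.80 and 8.82 CPM in control and 0.909, 1.64 and 1.78 CPM in knock-out libraries. The groups did not overlap (log2 fold change -1.86 ± 0.49, edgeR adjusted p = 0.157), and without control replicate 3 the fold change was -1.27. Adamts2 was more abundant, with 91.9, 139 and 293 CPM in control and 25.3, 115 and 84.5 CPM in knock-out libraries, which overlapped (log2 fold change -1.22 ± 0.66, edgeR adjusted p = 0.389). Without control replicate 3 the value for Adamts2 was -0.63. Adamts14 showed the same order of libraries at a lower level, 15.9 to 44.5 CPM in control and 4.36 to 17.7 CPM in knock-out libraries (log2 fold change -1.30, edgeR adjusted p = 0.321).

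Adamts13 (chromosome 2, 26973416 to 27009628, + strand), the protease that cuts von Willebrand factor, is known in liver as a product of stellate cells. It had 20.9, 25.8 and 75.9 CPM in control and 1.91, 14.2 and 10.5 CPM in knock-out libraries. The highest library was control replicate 3 and the lowest knock-out replicate 1, and the groups did not overlap. The log2 fold change was -2.20 ± 0.82 (edgeR adjusted p = 0.257), -1.39 without control replicate 3. Its substrate Vwf had 1734, 627 and 988 CPM in control and 693, 404 and 381 CPM in knock-out libraries (log2 fold change -1.18 ± 0.43, edgeR adjusted p = 0.247), with overlap. The opposite-strand transcript Gm36649 overlaps Adamts13 and had 127 counts over the 6 libraries, beside 1632 for Adamts13.

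Adamts13 was not alone in its order of libraries. Of the 38 genes 15 were highest in control replicate 3 and lowest in knock-out replicate 1, which was the case for 7.92% of all tested genes. They were Adamts2, Adamts3, Adamts10, Adamts12, Adamts13, Adamts14, Adamtsl1, Adamtsl2, Adamtsl3, Mmp2, Mmp11, Mmp17, Mmp23, Timp2 and Timp3. The sum of the stellate cell and myofibroblast markers given above was also highest in control replicate 3 (12814 CPM) and lowest in knock-out replicate 1 (1468 CPM). The part of stellate cell transcripts in these differences was not tested.

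Mmp2, gelatinase A and a product of stellate cells, illustrates this order. It had 61.0, 70.6 and 235 CPM in control and 15.2, 88.2 and 74.6 CPM in knock-out libraries, a 15.5-fold range across the 6. The log2 fold change was -1.04 ± 0.80 (edgeR adjusted p = 0.536), and without control replicate 3 and knock-out replicate 1 it was 0.31, with the opposite sign. Adamtsl2, which binds fibrillin microfibrils, had 42.2, 79.3 and 170 CPM in control and 20.8, 74.6 and 44.0 CPM in knock-out libraries (log2 fold change -1.06 ± 0.64, edgeR adjusted p = 0.439). Adamtsl2 lies 69713 bases downstream of Adamts13 on the same strand of chromosome 2.

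**Figure D4:**
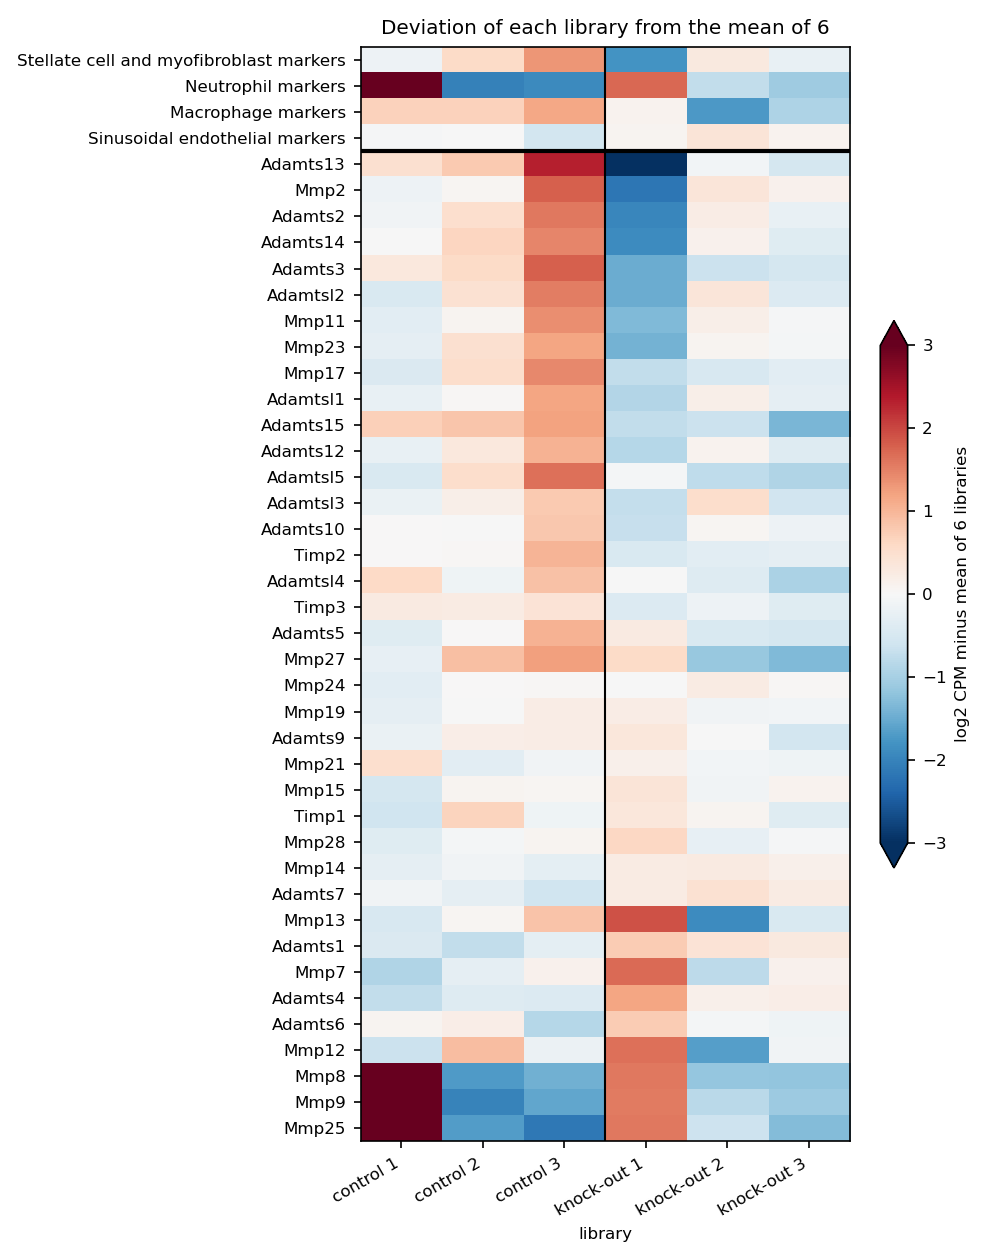
Log2 CPM of each library minus the mean of the 6 libraries, for 4 summed marker lists (top rows, above the line) and the 38 tested genes, ordered by the difference between control replicate 3 and knock-out replicate 1; red is above and blue below the mean, and colours saturate at 3 and -3. From Adamts13 downward a block of genes is high in control replicate 3 and low in knock-out replicate 1 together with the stellate cell markers, and at the bottom Mmp8, Mmp9 and Mmp25 are high in control replicate 1 together with the neutrophil markers.

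The remaining Adamtsl genes had lower means in knock-out SECs with overlap of the groups. Adamtsl4, a microfibril-binding protein of the eye's lens suspension, had 38.9, 23.4 and 47.4 CPM in control and 25.4, 19.5 and 13.2 CPM in knock-out libraries and the smallest p of the 5 (log2 fold change -0.92 ± 0.34, edgeR adjusted p = 0.247). The others were Adamtsl1 (-0.73), Adamtsl3 (-0.45) and Adamtsl5 (-1.35). All 5 were highest in control replicate 3, and without that library and knock-out replicate 1 Adamtsl4 and Adamtsl5 stood at -0.93 and -0.97, Adamtsl2 at -0.037, and Adamtsl1 and Adamtsl3 at 0.051 and 0.073.

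Mmp8 (neutrophil collagenase), Mmp9 (gelatinase B) and Mmp25 (a membrane-anchored protease of leukocytes) are stored in neutrophils. Mmp9 had 1912, 32.2 and 44.2 CPM in control and 382, 73.8 and 61.0 CPM in knock-out libraries. Mmp8 had 1242, 25.2 and 30.1 CPM in control and 246, 36.7 and 36.0 CPM in knock-out libraries. Most transcripts of both genes were in control replicate 1 and, after it, knock-out replicate 1, in the order of the summed neutrophil markers, which were 22475 and 4537 CPM in these libraries and 336 to 818 CPM in the other 4. Mmp25 had 189, 3.29 and 2.37 CPM in control and 31.2, 6.79 and 4.26 CPM in knock-out libraries. Within each library Mmp8 RPKM was 0.690 to 1.08 times Mmp9 RPKM, while Mmp9 itself varied 59.5-fold across libraries.

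For these 3 genes the fitted fold changes were negative and had wide errors, -1.94 ± 1.70 for Mmp9, -2.03 ± 1.71 for Mmp8 and -2.20 ± 1.77 for Mmp25 (edgeR adjusted p = 0.586, 0.572 and 0.557). Without control replicate 1 they were 2.17, 1.94 and 2.30, and without both control replicate 1 and knock-out replicate 1 they were 0.83, 0.40 and 0.96, so the sign was decided by 1 library. The part of neutrophil transcripts in these values was not tested. The 3 genes made up 1017 of 1225 RPKM of all Mmp genes in control replicate 1, and 21.8 of 326 RPKM in control replicate 2. In the knock-out replicates they made up 232 of 650, 38.4 of 347 and 35.7 of 361 RPKM. The Mmp sum without them was 208, 304 and 308 RPKM in control and 417, 308 and 326 RPKM in knock-out libraries.

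Another set of 9 genes was highest in knock-out replicate 1, where 14.4% of all tested genes were highest, namely Adamts1, Adamts4, Adamts6, Adamts9, Mmp7, Mmp12, Mmp13, Mmp15 and Mmp28. Mmp12, the macrophage elastase, had 34.7, 102 and 47.9 CPM in control and 169, 17.3 and 50.0 CPM in knock-out libraries, so that the knock-out group held both the highest and the lowest value. The log2 fold change of Mmp12 was 0.35 ± 0.85, and -0.86 without knock-out replicate 1.

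Mmp13, the main interstitial collagenase of the mouse, behaved alike, with 6.51, 9.54 and 16.6 CPM in control and 34.3, 2.46 and 6.58 CPM in knock-out libraries (log2 fold change 0.40 ± 0.95, and -1.25 without knock-out replicate 1). Mmp7, matrilysin, which is made by epithelia, had 10.5, 16.0 and 21.3 CPM in control and 63.1, 11.2 and 21.1 CPM in knock-out libraries (log2 fold change 0.99 ± 0.66, and 0.03 without knock-out replicate 1). The 6 cholangiocyte and mesothelial markers, all detected in each library, summed to 160 CPM in knock-out replicate 1 and to 89.6 to 125 CPM in the other 5. Epcam and Sox9 of this list were highest in control replicate 2, and Krt19, Krt7, Msln and Upk3b in knock-out replicate 1. Of the 8 hepatocyte markers 6 to 8 were detected in a library (Cps1 was at 0 in 3 libraries and Serpina1a in 1). They summed to 400, 1257 and 1760 CPM in control and 2124, 187 and 1530 CPM in knock-out replicates. The sum was likewise highest in knock-out replicate 1, where Alb alone held 1812 CPM. Apoa1, Tat and Hnf4a were also highest in that library, whereas Ttr and Cyp2e1 were highest in control replicate 3 (171 and 84.3 CPM, beside 91.7 and 4.82 CPM in knock-out replicate 1). Neutrophil markers, at 4537 CPM, were second highest in knock-out replicate 1. The macrophage markers summed to 1222 CPM in knock-out replicate 1, above the 343 and 600 CPM of the other knock-out libraries and below all controls. Their part in the levels of Mmp7, Mmp12 and Mmp13 was not tested.

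Mmp7, Mmp12 and Mmp13 sit with Mmp8, Mmp27 and 5 hardly expressed genes in a cluster of 10 Mmp genes that spans 427 kb of chromosome 9, from 7272514 to 7699416. Neighbours in it did not all peak in the same library, since Mmp8 was highest in control replicate 1, Mmp27 in control replicate 3, and Mmp7, Mmp12 and Mmp13 in knock-out replicate 1. Mmp8 and Mmp27 are only 2909 bases apart. Adamts1 and Adamts5, the aggrecanase next to it on chromosome 16, are 55041 bases apart on the same strand and were highest in knock-out replicate 1 and control replicate 3. Adamts5 had 55.8, 71.4 and 148 CPM in control and 86.3, 52.0 and 49.7 CPM in knock-out libraries (log2 fold change -0.55 ± 0.42, edgeR adjusted p = 0.539), and -0.026 without control replicate 3. Adamts1 RPKM was 7.77 to 18.9 times Adamts5 RPKM in control and 27.9 to 36.5 times in knock-out libraries, a description with no test.

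Several genes varied little across the libraries. Mmp19, Mmp24 and Mmp14 had the smallest ranges, with the highest library 1.42, 1.48 and 1.50 times the lowest. The membrane-type proteases Mmp15 and Mmp24 had log2 fold changes of 0.25 ± 0.21 and 0.17 ± 0.16, and the versican-cutting Adamts9 had -0.11 ± 0.24. Mmp17, a membrane protease held by a lipid anchor, had 5.65, 11.0 and 20.6 CPM in control and 4.54, 5.48 and 6.12 CPM in knock-out libraries (log2 fold change -1.20 ± 0.46, edgeR adjusted p = 0.261), and -0.63 without control replicate 3. The other tested genes with overlapping groups were Adamts6 (0.37), Adamts10 (-0.55), Adamts12 (-0.80), Mmp11 (-0.83), Mmp21 (-0.08), Mmp23 (-0.90), Mmp27 (-1.13) and Mmp28 (0.26). For Mmp19, Mmp21 and Mmp24 the overlapping opposite-strand genes Tmem198b, Edrf1 and BC029722 held more counts than the member (3568, 1091 and 1714, beside 1844, 201 and 721), and Gm31751 held 372 beside 383 for Mmp27. Whether counting used strand is not given in the sources used here, so reads from the stretches these pairs share cannot be told apart.

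The 13 genes below the filter were Adamts8, Adamts16, Adamts17, Adamts18, Adamts19, Adamts20, Mmp1a, Mmp1b, Mmp3, Mmp10, Mmp16, Mmp20 and Timp4. Adamts18 and Mmp1a had 0 counts in all 6 libraries, which allows up to 3 counts per library, or 0.232 to 0.320 CPM, by counting error alone. Adamts17 and Adamts16 had the most, with 22 and 16 counts over the control and 42 and 41 counts over the knock-out libraries. Adamts16 had 6, 4 and 6 counts in control and 9, 15 and 17 counts in knock-out libraries, without overlap. The stromelysins Mmp3 and Mmp10 were hardly detected, with 5 and 3 counts over all libraries. The rodent collagenase genes Mmp1a and Mmp1b are close copies of each other, so the 5 counts of Mmp1b are uncertain in their source.

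The other genes of matrix turnover were read from 7 lists in the same fit, with 62 tested genes in all. Of these, 0 had an edgeR adjusted p under 0.05, beside 0.195% of all tested genes. DESeq2 called 5 higher and 4 lower, beside 5.72% of all genes. An unadjusted edgeR p under 0.05 was reached by 14 of the 62, or 22.6%, beside the 17.5% of all tested genes. In the plasminogen system, whose plasmin can activate pro-metalloproteases, Plau, the urokinase gene, came closest to the threshold of the 10 genes tested. Plau had 38.0, 35.9 and 33.1 CPM in control and 116, 244 and 258 CPM in knock-out libraries, far apart (log2 fold change 2.53 ± 0.32, edgeR adjusted p = 0.052). The tissue activator Plat had a log2 fold change of -0.71. The median of the list was 0.10.

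Among 8 other regulators of metalloproteases (median -0.02), Reck, a membrane-bound inhibitor, had 37.4, 19.3 and 38.3 CPM in control and 10.1, 12.3 and 12.2 CPM in knock-out libraries (log2 fold change -1.46 ± 0.28, edgeR adjusted p = 0.101). The broad inhibitor A2m and the serine protease inhibitor Tfpi2 were higher in each knock-out library, with log2 fold changes of 2.86 and 0.70. For A2m the control mean was only 3.75 CPM. The 4 furin-like convertases that can remove prodomains had a median of -0.01, with Furin at -0.10, Pcsk5 at -0.66 and Pcsk7 at 0.08. Of 8 tested membrane-anchored ADAM proteases (median -0.04), Adam12 had 17.0, 19.5 and 16.4 CPM in control and 30.6, 37.9 and 32.9 CPM in knock-out libraries (log2 fold change 0.94 ± 0.13, edgeR adjusted p = 0.056). Adam19 had 0.74 and Adam10 -0.19. Of 5 matrix-degrading cathepsins (median -0.30), Ctsl had 0.62, Ctss -1.08 and Ctsd -0.30.

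The substrates and partners of these enzymes had lower medians than all tested genes. So did the markers of stellate cells (-1.40), macrophages (-1.31) and neutrophils (-1.88). The sinusoidal endothelial (0.38), hepatocyte (0.10) and cholangiocyte and mesothelial markers (0.31) had higher medians. The 17 tested matrix substrates had a median log2 fold change of -0.71, with Col5a2 at -0.87 ± 0.24, Dcn at -1.50 ± 0.54 and Vwf at -1.18 ± 0.43 (edgeR adjusted p = 0.167, 0.245 and 0.247). Of the 17, the groups did not overlap for 2 genes that were lower in knock-out SECs (Col5a2 and Dcn) and 2 that were higher. The higher ones were the basement membrane gene Nid1 (0.35 ± 0.13) and Sparc (0.34 ± 0.16). Over all tested genes 24.9% did not overlap, 11.7% lower and 13.2% higher. The basement membrane collagens Col4a1 and Col4a2 had 0.18 and 0.13. Dcn, Col1a1 and Col3a1 also stand on the stellate cell list. The 10 tested microfibril partners of the Adamtsl proteins had a median of -0.68. Ltbp4, which binds latent TGF-beta and elastic fibres, had 1686, 1630 and 1584 CPM in control and 69.9, 289 and 267 CPM in knock-out libraries (log2 fold change -2.97 ± 0.54, edgeR adjusted p = 0.097). Fbn1, fibrillin-1, and Fbln5 had -1.10 and -1.67.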

How the data were processed

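Counts per gene and RPKM values were deposited by the authors in 1 table of 41799 genes for 3 control and 3 knock-out libraries. The submitters' notes name bcl2fastq, TopHat2 2.0.13 and mm10; the sources used here give no counting program, annotation or use of strand. Deposited RPKM equalled count divided by gene length and library total within 0.1% for 100% of values, and served only for levels between genes. The paper given describes another experiment, and no design was taken from it.

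Counts were fitted across 15404 genes with edgeR 4.0.16 in R 4.3.3 (filterByExpr, TMM, quasi-likelihood test, group only, two-sided, Benjamini-Hochberg adjustment, threshold 0.05). CPM are counts scaled to TMM library size. The SE of an edgeR log2 fold change was derived from the test, as its absolute value divided by the square root of the F statistic. Alternatives were RLE factors, DESeq2 1.42.0, no filter, a stricter filter (10 counts in 3 libraries and an average log2 CPM of 1), a block for replicate number, limma-voom 3.58.1 with quality weights, TPM for levels, and leaving out single libraries. Leaving out pairs of libraries was chosen after seeing the data.

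Members and lists were chosen with earlier results of these data known. Values in each library are given for tested members without overlap of the groups, the 8 with the highest mean RPKM, and Timp1 to Timp4, Mmp2, Mmp9, Mmp12, Mmp13, Mmp14, Adamts1, Adamts2 and Adamts13; the values of Mmp7, Mmp17, Mmp25, Adamts5, Adamts14, Adamtsl2 and Adamtsl4 were chosen after they were seen. From lists, the 3 genes with the smallest p are named, of which 1 is not reported here; Nid1, Sparc, Col4a1 and Col4a2 were added after their values were seen. Of 120 list entries 119 matched by symbol and 1 by synonym. The names of 27 genes that a spreadsheet had turned into dates were restored. Intervals for counts of 0 cover counting error only.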

Additional observations from a re-analysis of the deposited data

How the results depend on the processing

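Over all genes edgeR called 16 higher and 14 lower. The calls were 35 higher with RLE factors, 483 and 389 with DESeq2, 114 and 62 without a filter, 47 and 26 with the stricter filter, 291 and 198 with limma-voom, and 1 and 2 with the replicate number as a block. With libraries left out, singly or in the added pairs, they ran from 0 to 269 higher and from 0 to 444 lower; the highest counts came without control replicate 1 and knock-out replicate 1, and the cause was not tested. Among members, edgeR called 0. DESeq2 called 4 higher and 4 lower, the fit without a filter 1 and 1, limma-voom 1 and 2, and fits with libraries left out 0 to 1 and 0 to 2, the calls again coming without control replicate 1 and knock-out replicate 1. Among the 7 lists, DESeq2 called 5 higher and 4 lower, the fit without a filter 2 higher, the stricter filter 1 higher, limma-voom 2 higher and 1 lower, and fits with libraries left out 0 to 3 higher and 0 to 2 lower.

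Of 20 log2 fold changes followed through all settings, 12 never changed sign. With limma-voom, Mmp9 was at 0.30, Mmp25 at 0.20, Mmp12 at -0.79 and Mmp13 at -0.84. With the block, Timp1 was at 0.030, Mmp12 at -0.031 and Mmp13 at -0.37. With libraries left out, Mmp9 ran from -3.85 to 2.17, Mmp8 from -4.12 to 1.94, Mmp25 from -4.11 to 2.30, Mmp2 from -1.44 to 0.31, Timp1 from -0.44 to 0.42, Mmp12 from -1.15 to 0.95, Mmp13 from -1.52 to 0.90 and Mmp7 from -0.20 to 1.40. The cause of these changes was not tested. By TPM, 7 of the 8 highest members by RPKM were the same.

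Deviations of same-numbered control and knock-out libraries correlated with r = 0.19, 0.03 and 0.42, and those of different numbers with -0.46 to 0.20. Control replicates 1 and 3 each correlated best with the knock-out library of the same number. Control replicate 2 correlated better with knock-out replicate 3 (0.20) than with its own number. Whether the libraries were paired cannot be settled from these values. Members under the filter had at most 24 counts in any library, and the fit without a filter, which tested 49 of the 51 members, called none of them.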
